A study of Drosophila melanogaster with 27 samples.

Results

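Ecdysone is the steroid hormone that times moulting and metamorphosis in insects. The 10 genes described here are its receptor gene EcR (FBgn0000546), the coactivator gene tai (FBgn0041092) and 8 genes that respond to the hormone, namely Eip75B (FBgn0000568), Eip74EF (FBgn0000567), Hr3 (FBgn0000448), ftz-f1 (FBgn0001078), Blimp-1 (FBgn0035625), ImpE1 (FBgn0001253), ImpE2 (FBgn0001254) and ImpE3 (FBgn0001255). They were taken by symbol from a table of 15348 genes, and all 10 were among the 9814 genes with enough reads to be tested. The values come from RNA sequencing of whole imaginal discs of Drosophila melanogaster, epithelial pouches of the larva from which the eyes and antennae, the legs and the wings of the fly develop. The 27 libraries cover 7 genotypes, and 35 to 50 larvae, kept at 25 °C and in the wandering phase of their last instar, gave the discs of a library.

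All genotypes carried hh-Gal4, a driver active in the posterior compartment of a disc, together with UAS-GFP, so every library mixes targeted posterior and untargeted anterior cells. The control expressed UAS-luc-RNAi, a hairpin against luciferase, and was dissected on day 5. The tumour added UAS-scrib-RNAi, a hairpin against a cell polarity gene, and UAS-Ras[v12], an activated Ras, to the luciferase hairpin. Its replicate 1 was dissected on day 9 and its replicate 2 on day 11. In further genotypes of the tumour the luciferase hairpin was replaced by a hairpin against CG6272 (HMS00057, day 8), sd (JF02514, day 7 to 8), Stat92E (HMS00035, day 8) or kay (HMS00254, day 10), which encode transcription factors. The tai genotype carried the tai hairpin (GL00514, day 10) on the homologue of the chromosome with the scrib and Ras transgenes, and no luciferase hairpin. For control and tumour there were 2 libraries of each disc type (eye-antennal, leg and wing), and CG6272 and sd had 2 in each of the eye-antennal and leg discs. Stat92E had 1 eye-antennal and 2 leg libraries, tai had 2 eye-antennal libraries and 1 leg library, and kay had 1 eye-antennal library. Larval age differed with genotype, so the effects of genotype and age cannot be told apart.

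Ecdysone, in its active form, binds a dimer of the nuclear receptors EcR and Usp on DNA, and coactivators such as Tai are recruited to the bound receptor. The receptor first switches on early genes for transcription factors, then a later tier that includes Hr3 and Blimp-1, and in discs a set of genes for secreted and membrane proteins used when the disc everts. At the onset of metamorphosis Hr3 activates ftz-f1 and Blimp-1 represses it, and ftz-f1 is normally expressed after a hormone pulse has passed.

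Reads assigned to genes numbered 11.7 to 16 M in a library. Levels are given as CPM, a gene's reads for each 1 M reads of the library, on library sizes scaled by the trimmed mean of M-values. Summed markers of each disc fitted the labels. Eye-antennal markers summed to 124 to 939 CPM in eye-antennal libraries and at most 90.8 CPM elsewhere, leg markers to at least 409 CPM in leg and at most 379 CPM in other libraries, and wing markers to at least 191 CPM in wing and at most 122 CPM in other libraries. CG6272 reads were 8.70 to 12.04 CPM in the CG6272 genotype and 46.5 to 82.0 CPM in tumours of the same discs, and Stat92E reads were 164 to 180 CPM in the Stat92E genotype against 215 to 234 CPM. The kay library had 131 CPM of kay against 433 and 242 CPM in eye-antennal tumours. Libraries titled sd had 202 to 300 CPM of sd, which overlapped the 248 to 283 CPM in tumours, and the genotype label of the eye-antennal ones names the kay hairpin. In libraries titled sd, kay was 185 and 171.5 CPM in eye-antennal and 207 and 199.5 CPM in leg discs. CG6272 and Stat92E libraries had 162 to 268 CPM of kay, so these values do not show which hairpin was carried. The eye-antennal and leg libraries are both called libraries titled sd and were averaged, though they may be of different genotypes. Reads aligned to several places were 15.8% to 22.9% of all in control and 54.4% to 76.1% in tumour libraries, and their part in the results was not tested.

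**Figure D1:**
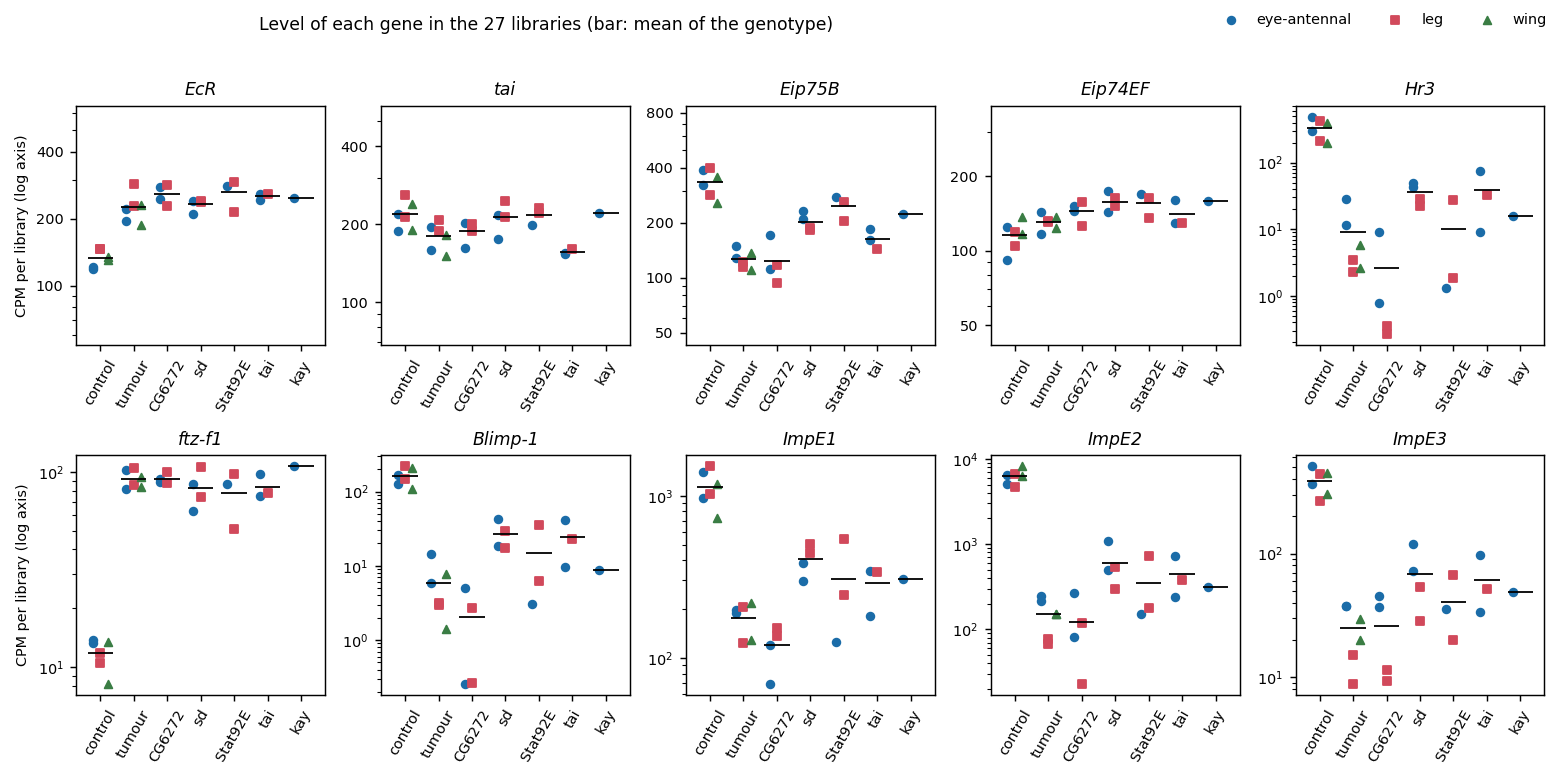
The level of each gene in every library is plotted in CPM on a log axis, by genotype, with the disc shown by colour and symbol and the genotype mean as a bar. Hr3, Blimp-1, ImpE1, ImpE2 and ImpE3 are highest in the 6 control libraries, ftz-f1 is lowest there, and EcR, tai and Eip74EF span narrow ranges.

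The question of the first comparison was which genes differ between tumour and control discs. On the mean over the 3 disc types, 9 of the 10 genes passed the test, with 2 higher and 7 lower in tumours. All changes are log2 fold changes with their SE from edgeR's quasi-likelihood F-test, adjusted over all tested genes. Of all 9814 tested genes 52.8% were called in this comparison, 28.3% higher and 24.5% lower, so the number of calls alone lies on a high background. The median log2 change was -2.04 over the 10 genes and 0.03 over all tested genes. Control and tumour libraries did not overlap for 8 of the 10 genes, against 26.5% of all tested genes. Whole-disc RNA cannot tell fewer cells of a type from less RNA per cell.

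The receptor gene EcR rose. It ranged from 119 to 146 CPM (median 133) in the 6 control libraries and from 187 to 287 CPM (median 225) in the 6 tumour libraries. Every tumour library was above every control library, with a change of 0.76 ± 0.09 (adjusted p = 3.96e-06). The coactivator gene tai moved the other way and by little. Its range was 188 to 260 CPM (median 216) in controls and 150 to 207 CPM (median 185) in tumours. The groups overlapped, and the fall of 0.28 ± 0.09 on the log2 scale (adjusted p = 0.0181) was not past the threshold with the dissection as a random block (adjusted p = 0.067), with only the compared libraries (0.0749) or with day 11 tumours alone (0.236). It was also lost without 1 of 5 single libraries, with adjusted p between 0.058 and 0.0676: control replicate 2 of any disc, or tumour replicate 1 of the eye-antennal or wing disc.

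The early genes differed from each other. Eip75B encodes a nuclear receptor that binds haem and antagonises Hr3. It had 258 to 398 CPM (median 341) in controls and 111 to 149 CPM (median 125) in tumours, with no overlap. It fell by 1.40 ± 0.13 on the log2 scale (adjusted p = 3.21e-07), which is 2.65-fold. Eip74EF, which encodes an ETS-domain transcription factor, had 91.5 to 136 CPM (median 118) in controls and 116 to 143 CPM (median 131) in tumours. The ranges overlapped, and its change of 0.18 ± 0.10 did not pass the test (adjusted p = 0.138). Without the eye-antennal control replicate 2 the same change was 0.26, with an adjusted p of 0.0373.

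The later tier moved in both directions. Hr3 had 195 to 492 CPM (median 346) in controls and 2.26 to 28.5 CPM (median 4.57) in tumours. No tumour library came near a control library, and the fall was 5.74 ± 0.72 on the log2 scale (adjusted p = 1.35e-05), or 53.5-fold. Blimp-1 encodes a zinc finger repressor and had 107 to 218 CPM (median 156) in controls and 1.41 to 14.2 CPM (median 4.51) in tumours. The groups were again far apart, and it fell by 4.93 ± 0.66 on the log2 scale (adjusted p = 2.63e-05), or 30.5-fold. The nuclear receptor gene ftz-f1 had 8.20 to 13.8 CPM (median 12.6) in controls and 81.4 to 105 CPM (median 90.0) in tumours. It was higher in every tumour library and rose 7.82-fold, by 2.97 ± 0.18 on the log2 scale (adjusted p = 4.86e-09).

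The 3 ImpE genes were identified as hormone-induced genes of imaginal discs. ImpE1 encodes a membrane protein with repeats like those of the LDL receptor, and it had 734 to 1519 CPM (median 1102) in controls and 124 to 217 CPM (median 194) in tumours. ImpE2, which encodes a secreted protein, had 4719 to 8177 CPM (median 6408) in controls and 67.9 to 248 CPM (median 152) in tumours. ImpE3 had 267 to 508 CPM (median 402) in controls and 8.81 to 37.8 CPM (median 24.9) in tumours. None of the 3 had overlapping groups. ImpE1 fell 6.39-fold (log2 change -2.67 ± 0.26, adjusted p = 9.46e-07), ImpE2 45.2-fold (-5.50 ± 0.55, 1.41e-06) and ImpE3 17.3-fold (-4.12 ± 0.36, 3.37e-07). In 21 alternatives the changes of the 8 called genes other than tai kept their sign and their call, with Hr3 between -6.17 and -5.54 and ftz-f1 between 2.83 and 3.10.

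Levels can be compared between genes only per length, so CPM was also divided by the summed exon length in kilobases. In controls ImpE2 led with 3644 ± 730 CPM per kb (SD, n = 6), ahead of ImpE3 with 356 ± 84.9 and ImpE1 with 181 ± 46.2. Hr3 (32.2 ± 11.4 CPM per kb), Eip75B (24.9 ± 4.17), Blimp-1 (19.2 ± 5.27) and tai (18.3 ± 2.35) followed with overlapping ranges, then EcR (13.4 ± 1.19) and Eip74EF (12.4 ± 1.68), and ftz-f1 was last with 1.38 ± 0.25. In tumours the order differed. ImpE2 still had the highest mean, 89.2 ± 42.4 CPM per kb, but ftz-f1 with 10.7 ± 1.15 now lay beside Eip75B with 9.42 ± 1.07, and Hr3 (0.86 ± 0.97) and Blimp-1 (0.70 ± 0.55) were last. Exon lengths are those of a later annotation than the one behind the counts. In it, CG12912 covers 61.8% and CG46321 58% of the exon length of Hr3 on the same strand, and lncRNA:CR45939 covers 29.4% of that of ftz-f1. CG12912 had 0 to 10 reads in a library. By identifier, CG46321 and lncRNA:CR45939 were not among the 15348 counted genes, which include genes without reads. Reads shared with an overlapping counted gene, here CG12912, may be left uncounted. This makes the level of Hr3 less certain than that of the other genes.

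**Figure D2:**
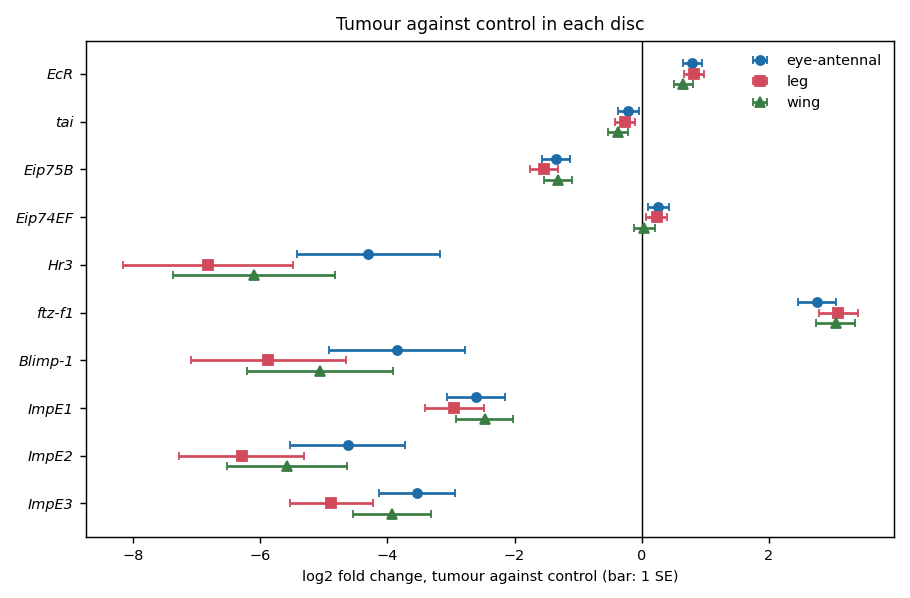
The log2 fold change of tumour against control is plotted for each gene in the eye-antennal, leg and wing disc, with bars of 1 SE. In each disc EcR and ftz-f1 lie right of 0, while Eip75B, Hr3, Blimp-1 and the 3 ImpE genes lie left of it.

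The same direction was found in each disc type. In eye-antennal discs 8 of the 10 genes were called, with 29.2% of all tested genes called. In leg discs the count was 8 beside 38.3%, and in wing discs it was 8 beside 30.4%; tai and Eip74EF passed in none of them. The fall of Hr3 was -4.30 ± 1.13 in eye-antennal, -6.82 ± 1.34 in leg and -6.10 ± 1.27 in wing discs. Mean Hr3 levels in tumours showed the same order, with 20.03 CPM in eye-antennal, 2.85 CPM in leg and 4.17 CPM in wing discs. A joint test of whether the tumour effect depends on the disc called 0 of the 10 genes, with adjusted p between 0.631 for ImpE3 and 0.926 for tai, and 3.28% of all tested genes. Among control discs 0 of the 10 genes differed, with 11.8% of all tested genes called. No member had an unadjusted p under 0.05 in either test, the lowest being 0.204 for EcR among control discs and 0.26 for ImpE3 across tumour effects, and DESeq2's test also called 0 of 10 in both.

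Several calls within 1 disc were lost in an alternative. In eye-antennal discs those of Hr3 and Blimp-1 were lost without tumour replicate 1 (adjusted p = 0.0882 and 0.108), with day 9 tumours alone in the fit (0.055 and 0.0525) and with day 11 tumours alone (0.114 and 0.115), and that of Blimp-1 also without control replicate 2 (0.0557). In wing discs EcR and Blimp-1 were no longer called without tumour replicate 1 (0.0632 and 0.0528) or with only the compared libraries (0.0504 and 0.0501), nor were Hr3 and Blimp-1 with day 11 tumours alone (0.0516 and 0.0681). The counts of called genes ran from 6 to 8 in eye-antennal and from 6 to 9 in wing discs, and stayed at 8 in leg discs.

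RNA of other tissues moved with the tumour and control groups. The summed level of 7 fat body markers was 456 to 8480 CPM in controls and 37.5 to 287 CPM in tumours, with 6 of 7 called lower. All 6 salivary gland markers fell, from sums of 2.01 to 1784 CPM to sums of 0.79 to 23.3 CPM, though the ranges of these sums overlapped. Of 5 hemocyte markers 3 rose, and their sum was 20.8 to 107 CPM in controls and 146 to 315 CPM in tumours. The sums of 3 other lists also overlapped between the groups. Tracheal markers summed to 1103 to 2014 CPM in controls and 1285 to 4925 CPM in tumours, and of 3 tested serp rose (1.30 ± 0.31, adjusted p = 0.00269) and trh fell (-0.93 ± 0.32, 0.0261). Myoblast and muscle markers summed to 74.5 to 133 CPM and 72.0 to 142 CPM, and of 4 tested twi (-1.11 ± 0.24, 0.00114) and Him (-2.50 ± 0.43, 0.000187) fell and Mlc2 rose (1.83 ± 0.50, 0.00645). Neuronal markers summed to 54.5 to 431 CPM and 48.2 to 163 CPM, and of 4 tested elav (-0.74 ± 0.18, 0.00336) and Syt1 (-1.42 ± 0.53, 0.0348) fell. Across the 6 controls Hr3 ranged from 195 to 492 CPM, and its relation to these marker sums was not tested. The part of these tissues in the member differences was not tested.

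Tumours of day 9 and of day 11 were also compared, with 1 library of each day in each disc. The test called 0 of the 10 genes, with 8.69% of all tested genes called. An unadjusted p under 0.05 was found for 6 of the 10 genes. The share of all tested genes at that threshold was not taken, so nothing is read from this count. EcR was lower on day 11 in all 3 discs, with 221, 287 and 231 CPM on day 9 and 196, 229 and 187 CPM on day 11 (-0.24 ± 0.06, adjusted p = 0.0702). For tai the same discs gave 158, 189 and 150 CPM on day 9 and 194, 207 and 181 CPM on day 11 (0.26 ± 0.07, adjusted p = 0.0682). DESeq2 called 2 genes, EcR (adjusted p = 0.025) and ImpE1 (0.0216), both lower on day 11. Without either eye-antennal tumour library edgeR called ImpE1 and ImpE3, also lower on day 11. Over all alternatives the number of all tested genes called between days ran from 95 to 1237. Day and dissection are the same variable here and cannot be told apart.

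**Figure D3:**
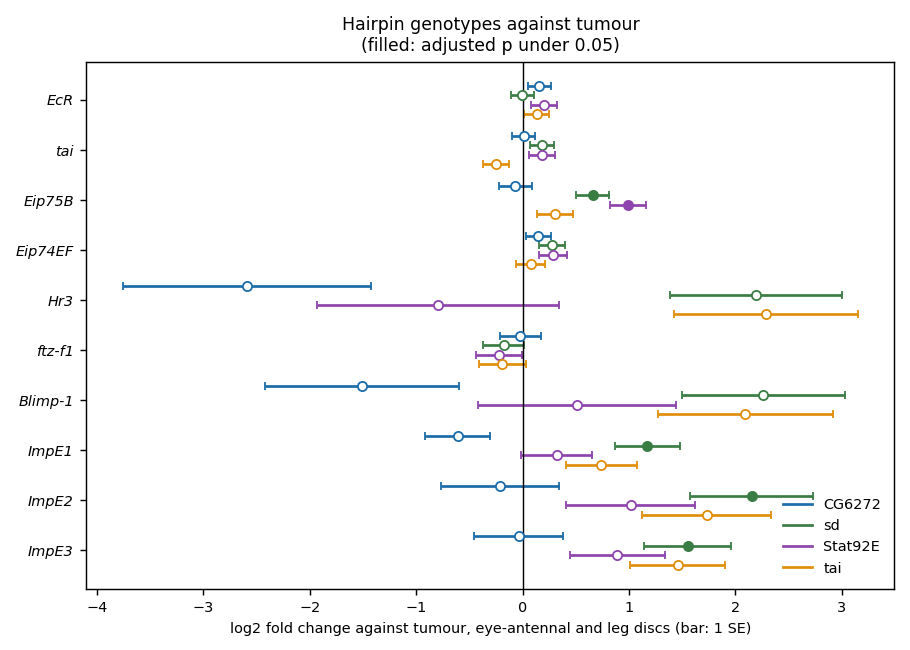
The log2 fold change against tumour is plotted for each gene in 4 hairpin genotypes over eye-antennal and leg discs, with bars of 1 SE and filled points for calls. Filled points are Eip75B in Stat92E and in libraries titled sd, and ImpE1, ImpE2 and ImpE3 in libraries titled sd.

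A further question was how each hairpin genotype differed from the tumour. Hairpin libraries were compared with the tumour libraries of the same discs. These comparisons share the tumour libraries, and those with the control share the control libraries, so their values are given side by side. Reads of Ras85D were 657 to 1133 CPM in eye-antennal and leg tumours and 347 to 643 CPM in hairpin libraries, without overlap. Those of scrib were 226.5 to 270 CPM in these tumours and 248 to 385 CPM in hairpin libraries, with overlap. Ras and scrib levels thus differed along with the hairpin, and their part in the differences from tumour was not tested. In libraries titled sd 4 of the 10 genes were called, all higher than in tumours, with 21.3% of all tested genes called and 9.26% called higher. Eip75B had 209, 233, 188 and 182 CPM there, in the order eye-antennal replicates 1 and 2 and leg replicates 1 and 2, against 129, 149, 121 and 114.5 CPM in the matching tumours. All 4 were above all 4 tumour libraries (0.66 ± 0.15, adjusted p = 0.0079).

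ImpE2 had 1094, 499, 538 and 299 CPM in the libraries titled sd and 218, 248, 76.8 and 67.9 CPM in tumours. The groups did not overlap (2.15 ± 0.58, adjusted p = 0.0173). ImpE1 had 385, 299, 504 and 444 CPM against 197, 190, 206 and 124 CPM, again without overlap (1.17 ± 0.31, adjusted p = 0.0146). ImpE3 had 118, 71.6, 53.1 and 28.3 CPM against 37.8, 37.7, 15.2 and 8.81 CPM. Its groups overlapped across discs but not within a disc (1.55 ± 0.41, adjusted p = 0.0159).

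Hr3 had 42.9, 50.2, 22.5 and 28.4 CPM in the libraries titled sd and 11.6, 28.5, 3.44 and 2.26 CPM in tumours, and its difference of 2.19 ± 0.81 did not pass (adjusted p = 0.0696). Blimp-1 differed by 2.26 ± 0.77 (adjusted p = 0.0506). Both were called by DESeq2 (0.0265 and 0.0289) and when only the compared libraries were fitted (0.00799 and 0.0196). The calls of the 3 ImpE genes were close to the threshold. The count of 4 fell to 1 in leg libraries alone, without tumour replicate 1 of the eye-antennal or replicate 2 of the leg disc, and against day 9 tumours. It fell to 2 without replicate 1 of the libraries titled sd in either disc, to 3 without tumour leg replicate 1 and to 0 against day 11 tumours, where Eip75B had an adjusted p of 0.0736. In 18 alternatives the log2 difference of Eip75B stayed between 0.61 and 0.73 and that of ImpE2 between 1.82 and 2.53. The fat body sum was 11840 CPM in eye-antennal replicate 2 of the libraries titled sd and 35.1 to 256 CPM in the other 3. That library had the lower ImpE1, ImpE2 and ImpE3 of its pair, and the part of fat body in these values was not tested.

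In the Stat92E genotype 1 of the 10 genes, Eip75B, was called, with 13.3% of all tested genes called and 6.5% called higher. It had 279 CPM in the eye-antennal library and 205 and 259 CPM in the leg libraries. All 3 were above all tumour libraries, and the difference of 0.99 ± 0.17 (adjusted p = 0.00198) was called in each of 16 alternatives, between 0.90 and 1.07. Against control, Eip75B was -0.46 ± 0.17 in this genotype and did not pass (adjusted p = 0.0654), though DESeq2 called it (0.0273). The leg libraries of this genotype differed from each other. Replicate 1 had 27.3 CPM of Hr3, 35.3 CPM of Blimp-1, 543 CPM of ImpE1 and 729 CPM of ImpE2, while replicate 2 had 1.83, 6.19, 246 and 177 CPM. In that same replicate 1 ftz-f1 was 51.1 CPM, the lowest value in any library with the tumour transgenes, and 97.4 CPM in replicate 2.

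In the tai genotype 0 of the 10 genes were called against tumour, with 2.72% of all tested genes called. The targeted gene tai had 154 and 153 CPM in the eye-antennal libraries and 161 CPM in the leg library. In tumours of these discs it had 158, 194, 189 and 207 CPM. The ranges overlapped, and the difference of -0.25 ± 0.13 did not pass (adjusted p = 0.348). Against control the tai level was lower by 0.48 ± 0.13 on the log2 scale and passed (adjusted p = 0.00872), but not without the leg library (0.086). The largest fitted differences from tumour, all higher and none past the threshold, were those of Hr3 (2.29 ± 0.86), Blimp-1 (2.09 ± 0.82), ImpE1 (0.74 ± 0.33), ImpE2 (1.73 ± 0.61) and ImpE3 (1.46 ± 0.44). The adjusted p of these genes lay between 0.106 and 0.282, and DESeq2 called ImpE3 (0.0103). Eye-antennal replicate 2 had 74.0 CPM of Hr3 and 732 CPM of ImpE2, replicate 1 had 9.19 and 242 CPM, and the leg library 32.6 and 380 CPM. Replicate 1 also had a summed level of 1684 CPM of muscle markers, against 138 and 167 CPM in the other libraries of this genotype.

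In the CG6272 genotype 0 of the 10 genes were called against tumour, with 14.2% of all tested genes called. Hr3 had 9.08 and 0.77 CPM in eye-antennal and 0.35 and 0.27 CPM in leg discs, which are 147, 12, 5 and 4 reads. In tumours of these discs it had 11.6, 28.5, 3.44 and 2.26 CPM. The ranges overlapped, and the difference of -2.59 ± 1.16 did not pass in edgeR (adjusted p = 0.163) but did in DESeq2 (0.0131). No other member had an unadjusted p under 0.05 there. Markers of fat body, hemocytes and of myoblasts and muscle summed to 168 to 2964, 214 to 582.5 and 109 to 792 CPM in CG6272 libraries. All tumour libraries had 37.5 to 287, 146 to 315 and 72.0 to 142 CPM in this order, and the part of these tissues was not tested. The kay library gave 0 of 10 calls, with 0.183% of all tested genes called. It had 224 CPM of Eip75B (0.69 ± 0.26, adjusted p = 0.277) and 15.8 CPM of Hr3, and with 1 library its spread was taken from the other groups. By DESeq2 the kay comparison also had 0 calls among the 10 genes, and Eip75B alone had an unadjusted p under 0.05 in edgeR.

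Whether the 4 hairpin genotypes other than kay differ from each other was tested jointly, and 4 of the 10 genes were called with 14.1% of all tested genes called. They were Eip75B (adjusted p = 0.0036), ImpE1 (0.00921), Hr3 (0.0142) and Blimp-1 (0.0305). Mean Eip75B was 247 ± 38.2 CPM in Stat92E (SD, n = 3), 203 ± 23.3 in libraries titled sd (n = 4), 164 ± 21.2 in tai (n = 3) and 123 ± 33.0 in CG6272 (n = 4). Neighbours in this order overlapped in range. ImpE1 was lowest in CG6272, with 69.1 to 153 CPM, and 299 to 504 CPM in libraries titled sd. The calls of Hr3 and Blimp-1 ended with the dissection as a random block (0.622 and 0.449) and with only the compared libraries (0.111 and 0.174). Hr3 also lost its call without leg replicate 2 of CG6272 (0.0518), and Blimp-1 without any 1 of 5 libraries of CG6272 or titled sd (0.0525 to 0.0931).

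No library of a hairpin genotype reached the control range of Hr3, Blimp-1, ImpE1, ImpE2 or ImpE3, and all lay above the control range of ftz-f1. Against control, 9 of the 10 genes were called in CG6272, with 43.7% of all tested genes called, 9 in libraries titled sd beside 31.3%, 8 in Stat92E beside 26.7% and 9 in tai beside 34.1%. The rise of EcR was 0.97 ± 0.11, 0.81 ± 0.11, 1.01 ± 0.12 and 0.94 ± 0.12 in this order, and that of ftz-f1 was 2.90 ± 0.21, 2.75 ± 0.21, 2.70 ± 0.22 and 2.74 ± 0.23. Hr3 was lower by 8.15 ± 1.05 on the log2 scale in CG6272, 3.37 ± 0.76 in libraries titled sd, 6.36 ± 1.20 in Stat92E and 3.28 ± 0.93 in tai. With only the compared libraries the Hr3 call in tai was lost (adjusted p = 0.0598). That of Blimp-1 was lost in leg libraries alone (0.054) or without replicate 2 of either disc for sd (0.0553 and 0.0589), without the eye-antennal library for Stat92E (0.0504), and in tai without control leg replicate 2 (0.0516), eye-antennal replicate 1 (0.0542) or the leg library (0.0916). Eip74EF, which was not called in tumours, was higher than in control in CG6272 (0.40 ± 0.12, adjusted p = 0.0142), in libraries titled sd (0.52 ± 0.12, 0.00365) and in Stat92E (0.54 ± 0.13, 0.00715). Its call was lost without control replicate 1 of the eye-antennal (0.0724) or leg disc (0.0564) or CG6272 leg replicate 2 (0.0666), in the sd comparison with leg libraries alone (0.0507), and without the eye-antennal library of Stat92E (0.103).

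**Figure D4:**
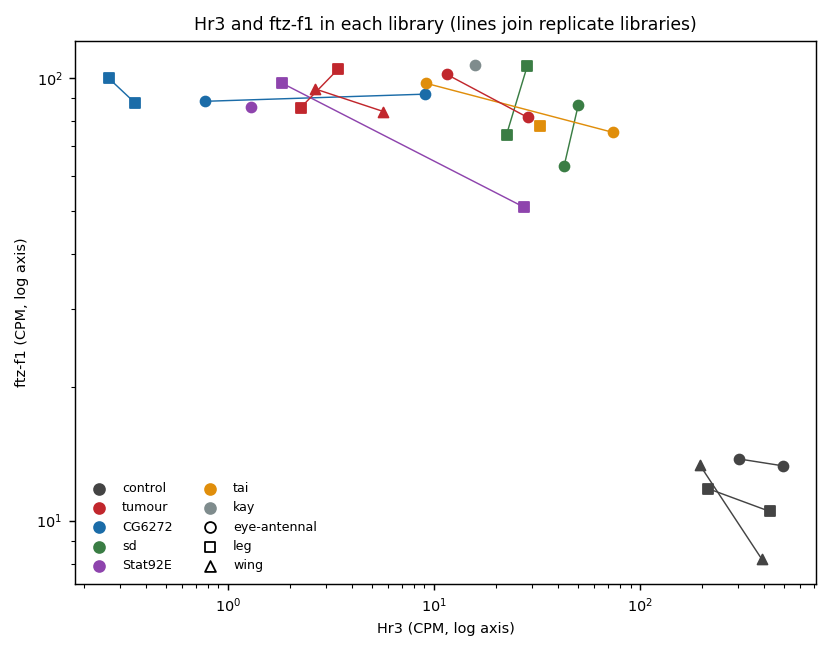
The level of ftz-f1 is plotted against that of Hr3 in each of the 27 libraries on log axes in CPM, with lines that join replicate libraries. The 6 controls lie at the lower right, with Hr3 from 195 to 492 CPM and ftz-f1 from 8.20 to 13.8 CPM, and all other libraries have ftz-f1 at 51.1 CPM or more.

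Replicate libraries of a group also differed from each other. In each of the 3 control discs, replicate 2 had more Hr3, Blimp-1, ImpE1, ImpE2, ImpE3, Eip75B, Eip74EF and tai than replicate 1, and less ftz-f1. Levels of ftz-f1 were 13.3 against 13.8 CPM in eye-antennal, 10.5 against 11.8 CPM in leg and 8.20 against 13.4 CPM in wing discs. The gaps in eye-antennal and leg discs are small for a gene with 199 and 182 or 155 and 161 reads. Hr3 was 492 against 303 CPM in eye-antennal, 426 against 214 CPM in leg and 389 against 195 CPM in wing discs. Of the 12 pairs, 7 were dissected on the same day, while the 3 tumour pairs set day 9 against day 11 and both pairs titled sd set day 8 against days 7 to 8. Hr3, Blimp-1 and the 3 ImpE genes were all 5 higher in the same library in 7 of the 7 same-day pairs and in 0 of the other 5. The gene ftz-f1 was higher in the library with less Hr3 in 6 of the 7 same-day pairs and in 2 of the other 5. Both same-day counts include the CG6272 leg pair, where Hr3 had 5 and 4 reads and its direction is not certain. Pairs of 1 genotype are not independent of each other, since discs with the same replicate number may share a dissection. All 5 genes were higher in replicate 2 in each of the 3 control pairs and in replicate 1 in both CG6272 pairs. These counts describe the pairs and were not tested. The ratio of Hr3 within a pair reached 14.9-fold in Stat92E leg discs, 11.8-fold in CG6272 eye-antennal discs and 8.05-fold in tai eye-antennal discs. The larvae of a group were collected as wandering, and their hour within that stage is not given in the labels.

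The likeness of patterns was described by Pearson's r of log2 CPM over the 27 libraries, which share the large gap between control and tumour-bearing discs. Hr3 was closest to Blimp-1 (0.97), ImpE2 (0.95) and CG3823 (0.95), and Blimp-1 to Hr3, ImpE2 (0.96) and Eip78C (0.96). ImpE2 was closest to CG3823 (0.98), ImpE3 (0.97) and wbl (0.97), ImpE3 to ImpE2, SP1029 (0.97) and ago (0.97), and ImpE1 to CG1273 (0.98), CG15011 (0.94) and Spn100A (0.94). The genes most like ftz-f1 were Cyp6a17 (0.98), chinmo (0.97) and Aldh (0.96). EcR was closest to CG18278, CG12643 and Aldh (each 0.93), and Eip75B to simj, ssh and the nuclear receptor gene Hr39 (each 0.96). The closest genes reached 0.84 for Eip74EF (TTLL4A, then CG33298 with 0.82 and Cyp303a1 with 0.80) and 0.77 for tai (defl, CG4768 with 0.77 and CG5746 with 0.76).

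**Figure D5:**
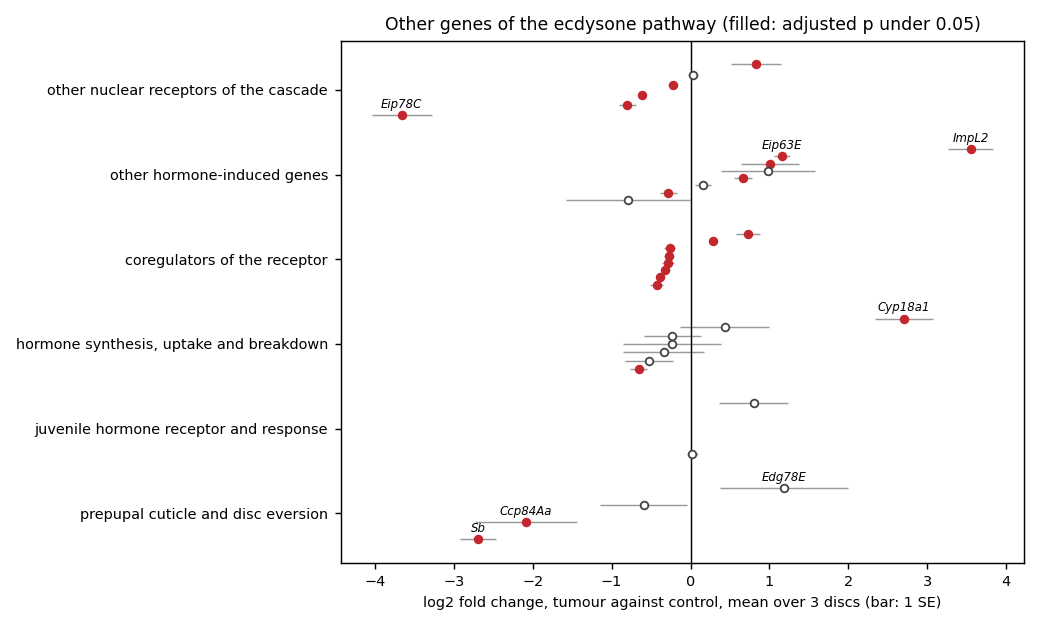
The log2 fold change of tumour against control, as the mean over 3 discs, is plotted for the 35 tested genes of 6 lists, with bars of 1 SE and filled points for calls. ImpL2 and Cyp18a1 lie farthest right, with 3.55 and 2.70, and Eip78C farthest left, with -3.66.

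Other genes of the pathway were taken from 6 lists of 44 genes, of which 39 were matched in the table and 35 tested. Hr4, br, Smr, nvd and Kr-h1 were not analysed here. Of the 35, 22 were called between tumour and control, 8 higher and 14 lower, beside 52.8% of all tested genes, so the counts of the lists lie near a high background. Their median log2 change was -0.24, against 0.03 over all tested genes. Among the other nuclear receptor genes 4 of 6 fell and 1 rose. Eip78C, an early-late receptor gene, fell from 127 ± 32.1 CPM in controls (SD, n = 6) to 10.3 ± 4.31 CPM (-3.66 ± 0.38, adjusted p = 1.76e-06). Hr39 fell by 0.80 ± 0.11, Hr78 by 0.62 ± 0.05 and usp, the partner of EcR, by 0.22 ± 0.06 on the log2 scale, while Hr38 rose by 0.83 ± 0.32 at 0.83 ± 0.26 CPM in controls.

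Of 8 other hormone-induced genes 4 rose and 1 fell. ImpL2, whose protein binds insulin-like peptides, rose from 172 ± 145 to 1491 ± 734 CPM (3.55 ± 0.29, adjusted p = 1.49e-07). Eip63E (1.16 ± 0.10), Eip63F-1 (1.01 ± 0.37) and Sox14 (0.67 ± 0.12) also rose, and Eip55E fell by 0.28 ± 0.10 on the log2 scale. All 8 tested coregulator genes were called. The methyltransferase genes Art4 (-0.43 ± 0.09) and trr (-0.29 ± 0.08), the demethylase gene Utx (-0.38 ± 0.06), bon (-0.32 ± 0.05), rig (-0.27 ± 0.06) and E(bx) (-0.27 ± 0.07) fell, and DOR (0.73 ± 0.16) and ash2 (0.28 ± 0.05) rose.

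Of 7 tested genes for hormone synthesis, uptake and breakdown 2 were called. Cyp18a1, whose enzyme inactivates ecdysone, rose from 6.84 ± 3.19 to 52.9 ± 43.0 CPM (2.70 ± 0.37, adjusted p = 2.35e-05), and the importer gene EcI fell by 0.66 ± 0.11 on the log2 scale. The synthesis genes phm and sad, active in the ring gland, had 147 to 217 and 98.1 to 145 CPM in control eye-antennal libraries, at most 2.95 and 5.21 CPM in control leg and wing libraries, and 12.1 and 8.06 or 10.1 and 12.6 CPM in the eye-antennal tumours. Of 4 tested genes of prepupal cuticle and disc eversion, Sb, a protease gene of disc eversion, fell from 125 ± 41.8 to 18.9 ± 3.995 CPM (-2.69 ± 0.23, adjusted p = 2.37e-07), and the cuticle gene Ccp84Aa fell by 2.09 ± 0.64 on the log2 scale at 1.08 ± 0.83 CPM in controls. Neither of the 2 tested juvenile hormone genes was called.

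Against tumour, the share of list genes called lay near that of all tested genes in CG6272, Stat92E and the libraries titled sd, so nothing is read from these counts. In CG6272 4 of 35 fell, beside 14.2% of all tested genes called, namely ImpL2 (-2.59 ± 0.34), Cyp18a1 (-2.18 ± 0.44), Eip63E (-1.35 ± 0.12) and Sox14 (-0.89 ± 0.14). In libraries titled sd 4 rose and 4 fell, beside 21.3% called, with the largest changes in ImpL2 (-2.09 ± 0.33), Eip63F-1 (-1.93 ± 0.47) and Sox14 (-0.47 ± 0.14). In Stat92E 3 rose, including Hr39 (0.51 ± 0.14) and Hr78 (0.34 ± 0.07), and ImpL2 fell (-1.76 ± 0.39), beside 13.3% called. In tai 2 of 35, Eip63E (-1.46 ± 0.14) and ImpL2 (-1.70 ± 0.39), fell, beside 2.72% called, and with kay 0 of 35 were called. Mean ImpL2 was 1491 CPM in tumours and 244 to 425 CPM in these 4 genotypes, each mean being above the 172 CPM of controls. The tumour and control means include wing discs, which the 4 genotypes lack, so the means are not over the same discs.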

How the data were processed

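The authors' deposited counts are whole reads per gene in 1 table; TopHat2 aligned the reads to dm3 and HTSeq counted them, per the submitters' processing notes. Of versions, counting mode and strand, nothing is given in the sources used here. The 5 summary lines of the counter stayed out of library sizes. A gene was tested if 2 or more libraries reached 1 CPM. This held for 9814 genes and for all 10 members. Counts were scaled by TMM, and edgeR 4.0.16 (R 4.3.3) fitted 1 mean per genotype and disc over 27 libraries with 12 residual degrees of freedom. Contrasts were tested with the robust quasi-likelihood F-test and Benjamini-Hochberg adjustment over all tested genes, at a threshold of 0.05. The SE is the absolute log2 change over the square root of F. Differences among discs or hairpins used joint contrasts, and days were compared within tumour libraries with disc as a term. Alternatives were DESeq2 1.42.0 (test and size factors), limma-voom 3.58.1 with the dissection as a random block (correlation 0.442), the replicate number as a block, other count filters, only the compared libraries, leg libraries alone, each library left out and, added after the data were seen, tumours of 1 day alone. The test was also run on simulated counts, drawn independently for each library and with few changed genes. That run does not cover libraries that share a dissection, or a comparison in which most genes change.

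The members and the gene lists were chosen with earlier results of these data known. The named genes are the 10 members in every comparison, the list genes called in tumours and up to 3 per hairpin, and for each member the 3 genes of highest Pearson correlation over log2 CPM with 1 CPM added. Replicates were independent dissections per the labels, of pooled larvae. Exon lengths and symbols came from a later annotation than dm3, so no coordinates are given. Old list names were matched through synonyms, for example DOR and EcI. The eye-antennal libraries titled sd were grouped by title. The CG6272, Stat92E and kay libraries have another form of column name, which cannot be told apart from their genotypes.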

Additional observations from a re-analysis of the deposited data

Results flagged for a closer look

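Groups of 1 genotype and disc held at most 2 libraries, so single libraries were compared with the others of their genotype over discs, for genotypes of 4 or 6 libraries. Of 40 sets of values, 3 held a library whose gap to the next was too large for the set's range, and chance gives about 1 in 20. Hr3 in tumour eye-antennal replicate 2 was 28.5 CPM, with the other 5 tumour libraries at 2.26 to 11.6 CPM. Hr3 in CG6272 eye-antennal replicate 1 was 9.08 CPM, with the other 3 at 0.27 to 0.77 CPM. EcR in eye-antennal replicate 1 of the libraries titled sd was 210 CPM, with the other 3 at 237 to 241 CPM. Disc type differs within these sets, and its part was not tested.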

How the results depend on the processing

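Of the comparisons of the 10 members, those of tumour or hairpin genotypes with control kept their counts within 1.5 times of the reported one in every alternative run, at 8 or 9 of 10 for tumours on the mean over 3 discs, 6 to 8 in eye-antennal, 8 in leg and 6 to 9 in wing discs. The counts against tumour and among hairpins moved. Counts of members were 1 for CG6272, 1 for tai, 7 among hairpins and 2 between days by DESeq2, 2 among hairpins with the dissection as a random block and 2 with only the compared libraries. For libraries titled sd the count was 1 with leg libraries alone, 1 against day 9 and 0 against day 11 tumours. Counts over all tested genes moved by over 1.5 times as follows. By DESeq2 they were 882 for dependence of the tumour effect on disc, 633 for tai, 255 for kay and 2279 among hairpins. With the dissection as a random block they were 771 for dependence on disc, 2334 among control discs, 717 for CG6272, 1132 for sd, 757 for Stat92E, 84 for tai, 38 for kay, 2024 for sd against control and 590 among hairpins. With only the compared libraries, and so fewer residual degrees of freedom, they were 1822 in leg and 1098 in wing discs, 125 for dependence on disc, 757 among control discs, 673 for CG6272, 1193 for sd, 222 for Stat92E, 12 for tai and 0 for kay. For kay that setting left 1 library against 2, and DESeq2 called 255 genes. Against day 9 tumours they were 802 for tai and 265 for kay, and 181 for dependence on disc. Against day 11 tumours they were 183 for dependence on disc, 678 for CG6272, 1003 for sd, 704 for Stat92E, 102 for tai and 10 for kay. The sd comparison with control gave 2016 in leg libraries alone, and the day comparison 95 without a disc term. The causes were not tested.

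Signs reversed only for values that passed no test. With the dissection as a random block these were ImpE3 in CG6272 (0.0031) and EcR in sd (0.0034). EcR in sd was also 0.0079 with no count filter, 0.027 with only the compared libraries and 0.13 against day 11 tumours. Against day 11 tumours, CG6272 had tai at -0.093, ftz-f1 at 0.14 and ImpE3 at 0.18. With day 9 tumours Eip74EF in wing discs was -0.0575, and kay had Hr3 at 0.45 and Blimp-1 at 0.58. With each library left out in turn, signs also turned within these log2 ranges. In CG6272 against tumour they were tai from -0.075 to 0.11, Eip75B from -0.24 to 0.070, ftz-f1 from -0.091 to 0.064, ImpE2 from -1.03 to 0.16 and ImpE3 from -0.21 to 0.18. In Stat92E they were EcR from -0.024 to 0.30, Hr3 from -2.29 to 2.37, Blimp-1 from -0.36 to 2.74 and ImpE1 from -0.022 to 1.26. The others were EcR in sd (-0.078 to 0.085), Eip74EF in tai (-0.0025 to 0.16) and in wing tumours (-0.067 to 0.16), Hr3 (-0.85 to 0.45) and Blimp-1 (-0.71 to 0.58) in kay, tai in sd (-0.14 to 0.022) and Stat92E (-0.12 to 0.026) against control, and ImpE2 between days (-0.043 to 0.13).

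Leaving out single libraries gave these ranges of counts over all tested genes: 1785 to 2025 in eye-antennal and 1837 to 2876 in wing tumours, 171 to 425 for dependence on disc, 684 to 1187 among control discs, 740 to 1717 for CG6272, 1251 to 2248 for sd, 750 to 1485 for Stat92E, 86 to 401 for tai and 5 to 10 for kay against tumour. They were 1621 to 2491 for Stat92E and 1966 to 3015 for tai against control, 820 to 1333 among hairpins and 203 to 1237 between days. Counts of members ranged from 1 to 4 for sd, 2 to 6 among hairpins and 0 to 2 between days. The comparison of kay gave no value without its library, and the joint hairpin test gave none without the single Stat92E eye-antennal or tai leg library.

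Replicate numbers are shared by the groups but name separate dissections within a genotype. Deviations of same-numbered libraries correlated at a median of 0.161 within a genotype and -0.026 between genotypes, so the numbers were not taken as pairs between genotypes. Within a genotype, discs of the same number may share a dissection, and limma-voom estimated a correlation of 0.442 for it. The main test treats these discs as independent, so its p-values may be too small. With the replicate block the tumour comparison called 9 members and 5146 genes, and the block moved the count for kay to 11 genes. Depth limits Hr3 in the CG6272 leg libraries, where 5 and 4 reads of Hr3 were counted.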
